A study of Mus musculus with 19 samples.

Results

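Astrocyte and reactive gliosis genes were followed in striatal RNA of mice that carry mutant huntingtin (HTT), the protein whose expanded polyglutamine repeat causes Huntington's disease. The list held 34 genes, 23 for the resting (homeostatic) functions of astrocytes and the others for gliosis, and a gene was kept when it had 10 or more counts in at least 4 of the 19 mice. By this rule 33 genes were kept, 23 homeostatic and 10 reactive, among 18521 genes that were tested. The gene left out was Steap4, a metalloreductase induced in reactive astrocytes, which had 0 to 12 counts per mouse.

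Astrocytes clear glutamate from synapses, buffer potassium, move water at blood vessels and are coupled into a network by gap junctions. When the tissue is injured or inflamed they become reactive. They then make more intermediate filaments, secrete acute-phase proteins and respond to cytokines of the interleukin-6 family through the receptor subunit OSMR and the transcription factor STAT3.

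The striatum was taken at 6 months of age from 7 wild type (WT) mice and from 4 mice each of the genotypes KI-FL, KI-571 and KI-96 on a C57/BL/6 background. KI-FL mice are HD140Q knock-in (KI) mice and make the mutant protein in full length from the mouse gene. In KI-571 and KI-96 mice the HD140Q allele was truncated with CRISPR-Cas9, so that N-terminal fragments of mutant HTT are made, the shorter one in KI-96 mice. According to the methods, the truncated lines descend from edited founder animals and were bred with WT mice as heterozygotes, which keep a WT allele. The methods do not state the zygosity of the KI-FL mice used for sequencing.

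The mice had gene counts in total of 12669809 to 26388542. Levels are given as CPM, gene counts scaled to library size with TMM factors, and changes as log2 fold changes of a KI genotype minus WT from edgeR's quasi-likelihood fit over all 19 mice. A gene passed when its p-value, adjusted by the Benjamini-Hochberg method over all 18521 genes, was under 0.05. The p-values measure the spread between these mice, and the 3 KI genotypes were compared with the same WT mice. In bulk tissue, fewer astrocytes and less RNA of a gene per astrocyte cannot be told apart. Some mice stood apart. The share of reads outside genes was 24.2% in KI-96 replicate 3 and 11.1% to 15.99% in the others. WT replicate 3 had 1143 CPM summed over 9 cortical neuron markers, KI-571 replicate 2 had 489 CPM and the remaining mice had 70.5 to 184 CPM. KI-FL replicate 4 had 16384 detected genes, and the remaining mice had 23177 to 28700. Xist, expressed in female cells, was above 100 CPM in 4 of 4 KI-96 mice, 1 of 7 WT, 0 of 4 KI-571 and 1 of 4 KI-FL mice, so that the KI-96 genotype and sex cannot be told apart. Mean CPM of Htt, the targeted gene, was 178 ± 9.80 in WT (SD, n = 7), 186 ± 40.1 in KI-96 (SD, n = 4), 124 ± 15.3 in KI-571 (SD, n = 4) and 158 ± 17.5 in KI-FL (SD, n = 4).

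In WT mice most homeostatic genes stood far above the reactive genes. Per kilobase of exon, the order of levels was led by Sparcl1, a secreted synapse-organizing protein, at 446 ± 45.3 CPM per kilobase (SD, n = 7) and Glul, glutamine synthetase, at 440.0 ± 77.3 CPM per kilobase (SD, n = 7), whose ranges overlapped. Aldoc, an aldolase, Clu, a secreted chaperone, and Slc1a2, the main glutamate transporter, followed at 215 ± 10.5, 204 ± 17.0 and 193 ± 20.3 CPM per kilobase (SD, n = 7), again with overlapping ranges. Gfap, the filament protein by which gliosis is stained, was the highest reactive gene, at rank 12 of 32 with 42.2 ± 10.7 CPM per kilobase (SD, n = 7). The other reactive genes took ranks 24 to 32, from Stat3 at 6.52 ± 0.509 to Lcn2 at 0.193 ± 0.198 CPM per kilobase (SD, n = 7). Aqp4 was not ranked, since its exon length was not used here. All 23 homeostatic genes were above 0 in every mouse.

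The reactive genes also varied more among WT mice. The coefficient of variation of CPM over the 7 WT mice had a median of 24.8% for the 10 reactive genes (7.81% to 102%) and 10.2% for the 23 homeostatic genes (4.87% to 55.2%). Aldoc was the steadiest gene and Lcn2 the most variable.

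**Figure D1:**
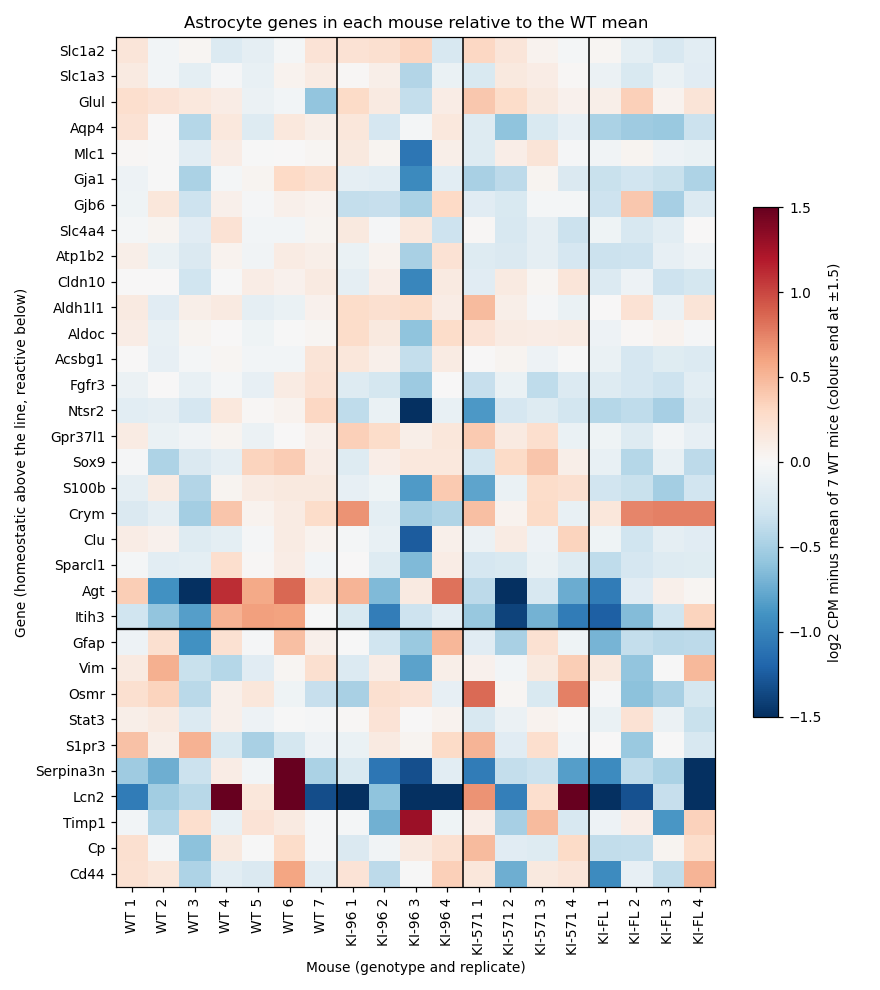
Heat map of log2 CPM minus the mean of the 7 WT mice, for 23 homeostatic and 10 reactive genes in rows and the 19 mice in columns, grouped by genotype. The KI-FL columns are mostly below 0, with Crym the gene farthest above it, KI-96 replicate 3 is low at Ntsr2, Clu, Mlc1 and Cldn10, and WT replicate 6 is high at Serpina3n.

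Neither gliosis genes nor homeostatic genes passed in any KI genotype. In KI-96 mice 0 of 33 genes passed in edgeR, where 0.027% of all tested genes did. In KI-571 mice 0 of 33 passed, against 0.0324% of all genes, and in KI-FL mice 0 of 33, against 0.194% of all genes. With the mean of the 3 KI genotypes set against WT, 0 of 33 passed, against 0.054% of all genes, and at an unadjusted p under 0.05 in edgeR 7 were lower (Aqp4, Gja1, Fgfr3, Ntsr2, Sparcl1, Itih3 and Serpina3n) and 0 higher, where 6.84% and 6.03% of all genes were. DESeq2 passed 0 in KI-96 mice (0.151% of all genes), in KI-571 mice (0.551%) and in all KI mice (1.47%). In KI-FL mice it passed 1, Aqp4, where it passed 2.75% of all genes. The counts at an unadjusted p under 0.05 that follow describe the list and establish no single change. In edgeR fits other than the main one the share of all genes at this p was not read. Shifts of these counts between fits therefore cannot be told from shifts over all genes. Lcn2 met the rule through 5 mice, all WT or KI-571, so its place in these counts is not read as a change.

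In KI-FL mice most genes of both groups lay below WT. Of 23 homeostatic genes 20 were below 0 and 3 above, and of 10 reactive genes 9 were below and 1 above. The median log2 fold change was -0.19 for the homeostatic and -0.20 for the reactive genes, beside -0.028 for all tested genes. With single mice left out the homeostatic median stayed between -0.22 and -0.17, and the reactive median ran from -0.33 without KI-FL replicate 4 to -0.077 without WT replicate 6. At an unadjusted p under 0.05 in edgeR, 7 genes were lower (Aqp4, Gja1, Fgfr3, Sparcl1, Acsbg1, Gfap and Serpina3n) and 1 was higher (Crym), where 8.84% and 7.89% of all genes were. By DESeq2 these counts were 11 and 1, where 11.1% and 7.45% of all genes were. The number lower was 13 without WT replicate 3, 11 without KI-96 replicate 3 and 4 without KI-FL replicate 4, while 28 to 30 genes lay below 0 with any mouse left out. Of all tested genes 67, 159 and 7 passed in KI-FL mice in these fits, in the same order, against 36 with all mice.

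KI-571 mice lay on both sides of WT. There 17 genes were below 0 and 16 above, with medians of -0.011 for the homeostatic and 0.049 for the reactive genes beside -0.0089 for all genes. Both signs turned with single mice left out, the homeostatic median between -0.034 (without KI-571 replicate 3) and 0.023 (without WT replicate 7) and the reactive between -0.033 (without WT replicate 4) and 0.15 (without KI-571 replicate 2). At an unadjusted p under 0.05 in edgeR, 5 were lower (Aqp4, Fgfr3, Agt, Itih3 and Serpina3n) and 1 higher (Lcn2), where 3.83% and 3.89% of all genes were. The number lower ranged from 2 without KI-571 replicate 2 to 9 without KI-96 replicate 3, and by DESeq2 it was 4, where 4.1% of all genes were lower and 4.45% higher.

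In KI-96 mice 19 genes were below 0 and 14 above, with medians of -0.059 for the homeostatic and -0.012 for the reactive genes beside -0.015 for all genes. At an unadjusted p under 0.05 in edgeR, 5 were lower (Gja1, Fgfr3, Ntsr2, Serpina3n and Lcn2) and 2 higher (Gpr37l1 and Aldh1l1), where 3.09% and 4.36% of all genes were. Of these, Lcn2 had 3 counts over all KI-96 mice. Without KI-96 replicate 3, 0 were lower and 2 higher, and the homeostatic median was 0.033. With the other single mice left out it reached -0.17 (without KI-96 replicate 4), and the reactive median ran from -0.085 (without WT replicate 3) to 0.033 (without KI-96 replicate 1). When log2 CPM of Xist entered the model, 0 were lower and 0 higher. By DESeq2, 4 were lower and 2 higher, where 3.53% and 4.76% of all genes were.

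**Figure D2:**
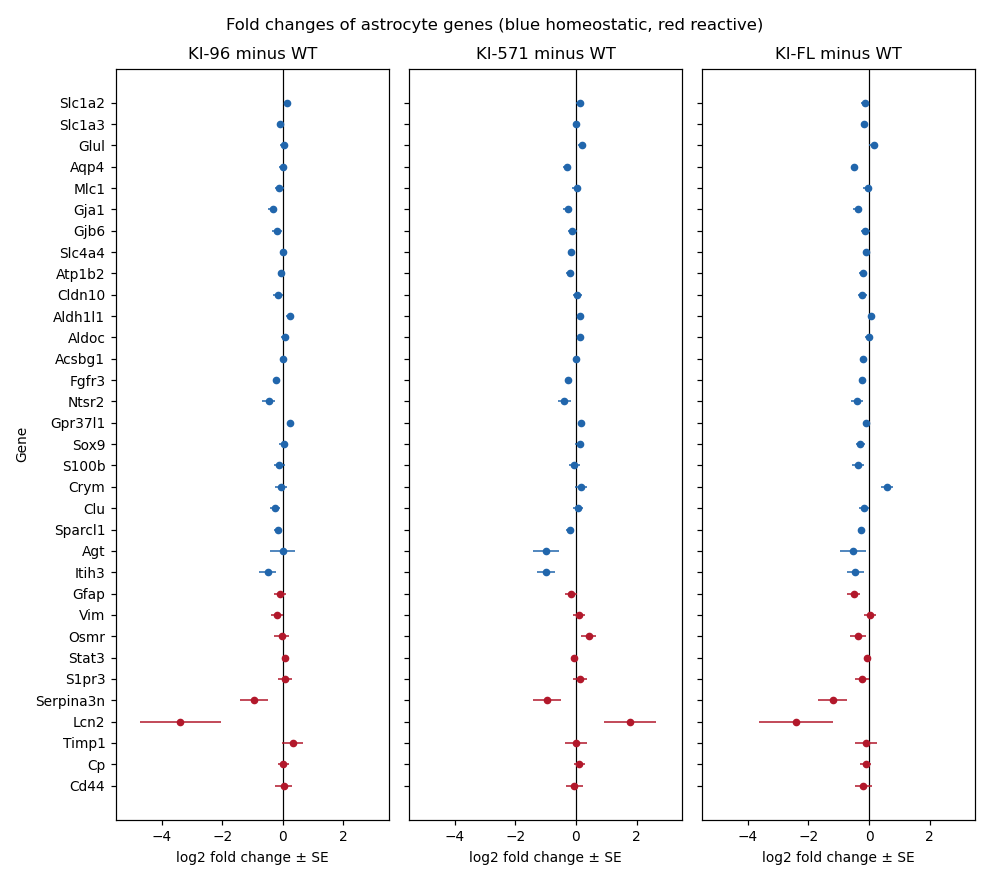
Log2 fold change with its standard error (edgeR) of each of the 33 genes in each KI genotype minus WT (1 panel a genotype), homeostatic genes in blue and reactive genes in red. In KI-FL mice 29 of 33 points lie below 0; the point of Lcn2 in KI-96 mice rests on 3 counts in total.

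Intermediate filament genes are the usual measure of gliosis. Gfap (chromosome 11 of GRCm38 from 102887336 to 102900912) was at 91.4, 181 and 236 CPM in WT mice (lowest, median and highest). It was at 171, 139.7, 117 and 242 CPM in KI-96 replicates 1 to 4, at 153, 122, 202 and 164 CPM in KI-571 replicates 1 to 4 and at 106, 134, 129.9 and 130.4 CPM in KI-FL replicates 1 to 4. All 4 KI-FL mice were below 6 of the 7 WT mice and above WT replicate 3, so the groups overlapped. No KI genotype had a mean above that of WT.

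The log2 fold change of Gfap in KI-FL mice was -0.51 with an adjusted p of 0.213 in edgeR (standard error 0.20). An exact permutation test on log2 CPM, two-sided and over 330 splits, gave p = 0.0818 (adjusted p = 0.283 over all genes). Without WT replicate 3, the WT mouse with high cortical markers, the fold change was -0.63 (adjusted p = 0.08 in edgeR). In KI-96 and KI-571 mice Gfap differed from WT by -0.086 and -0.15 (standard errors 0.20, adjusted p = 0.954 and 0.958 in edgeR).

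Vim, the filament vimentin that astrocytes share with vessel and ependymal cells, was at 21.2, 29.0 and 41.5 CPM in WT mice (lowest, median and highest). It was at 24.7, 30.7, 16.3 and 30.2 CPM in KI-96, at 29.7, 27.8, 31.6 and 36.7 CPM in KI-571 and at 31.5, 18.8, 28.5 and 39.9 CPM in KI-FL replicates 1 to 4. Every KI genotype overlapped WT. The log2 fold changes of Vim were -0.20, 0.11 and 0.025 (standard errors 0.20, adjusted p = 0.862, 0.973 and 0.959 in edgeR), and the sign in KI-FL mice turned to -0.15 without KI-FL replicate 4.

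Serpina3n (chromosome 12 of GRCm38 from 104406729 to 104414329) encodes a serine protease inhibitor that is a standard mark of reactive astrocytes. It was at 6.04, 8.03 and 40.4 CPM in WT mice (lowest, median and highest). It was at 8.59, 4.71, 3.96 and 8.98 CPM in KI-96, at 4.80, 7.86, 8.05 and 5.64 CPM in KI-571 and at 5.18, 7.68, 7.23 and 2.15 CPM in KI-FL replicates 1 to 4. The highest value was WT replicate 6 alone, and the other WT mice reached at most 10.8 CPM, which overlapped every KI genotype.

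The log2 fold changes of Serpina3n were -0.96 in KI-96, -0.96 in KI-571 and -1.20 in KI-FL mice (standard errors 0.46, 0.46 and 0.47, adjusted p = 0.669, 0.641 and 0.205 in edgeR). Without WT replicate 6 they were -0.31, -0.31 and -0.56 (adjusted p = 0.94, 0.999 and 0.439 in edgeR).

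Lcn2 (chromosome 2 of GRCm38 from 32384633 to 32388252), the secreted iron-siderophore binder lipocalin 2, was close to the detection limit. It had 2, 4, 4, 25, 10, 34 and 2 counts in WT replicates 1 to 7. It had 0, 3, 0 and 0 counts in KI-96, 13, 2, 8 and 112 counts in KI-571 and 0, 1, 5 and 0 counts in KI-FL replicates 1 to 4. A single KI-571 mouse, replicate 4, thus held most Lcn2 counts of its genotype, and that mouse also had 5436 CPM summed over 10 choroid plexus and ependyma markers. KI-571 replicate 2 had 5181 CPM of these markers with 2 counts of Lcn2, and KI-FL replicate 1 had 3092 CPM with 0 counts. The part of those cells in the value was not tested.

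In KI-571 mice the log2 fold change of Lcn2 was 1.80 (standard error 0.86, adjusted p = 0.64 in edgeR), and without replicate 4 it was -0.36. No KI-96 mouse had more than 3 counts of Lcn2, so no fold is given, and the floor of 3 counts was 0.171 CPM beside a WT mean of 0.507 CPM. The reactive median in KI-96 mice was -0.012 with Lcn2 placed at this floor as well. For the other secreted reactive proteins, the metalloprotease inhibitor Timp1 and the ferroxidase ceruloplasmin (Cp), the log2 fold changes lay between -0.11 and 0.32 in the 3 KI genotypes, with adjusted p of 0.792 or more in edgeR. Timp1 had 13 to 69 counts per mouse.

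Of the signalling genes of reactivity, 0 passed in edgeR in any KI genotype. Stat3, the transcription factor of the pathway, was at 53.8, 61.8 and 68.2 CPM in WT mice (lowest, median and highest). It was at 62.6, 71.2, 62.2 and 64.4 CPM in KI-96, at 52.6, 58.2, 64.5 and 61.5 CPM in KI-571 and at 57.9, 72.0, 58.5 and 49.2 CPM in KI-FL replicates 1 to 4. All groups overlapped. The log2 fold changes of Stat3 were 0.068, -0.069 and -0.065 (standard errors 0.09 to 0.10, adjusted p = 0.91, 0.961 and 0.756 in edgeR).

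Osmr, the oncostatin M receptor subunit, was at 2.30, 3.27 and 3.90 CPM in WT mice (lowest, median and highest). It was at 2.16, 3.66, 3.58 and 2.81 CPM in KI-96, at 5.67, 3.15, 2.63 and 5.26 CPM in KI-571 and at 3.05, 1.98, 2.17 and 2.55 CPM in KI-FL replicates 1 to 4. KI-571 replicates 1 and 4 were above every WT mouse, and the other KI-571 mice were within the WT range. The log2 fold changes of Osmr were -0.036, 0.42 and -0.36 (standard errors 0.25, 0.25 and 0.26, adjusted p = 0.984, 0.769 and 0.49 in edgeR). S1pr3, a sphingosine-1-phosphate receptor, and Cd44, the hyaluronan receptor, lay between -0.22 and 0.13 in the 3 genotypes on the log2 scale, with adjusted p of 0.642 or more in edgeR.

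**Figure D3:**
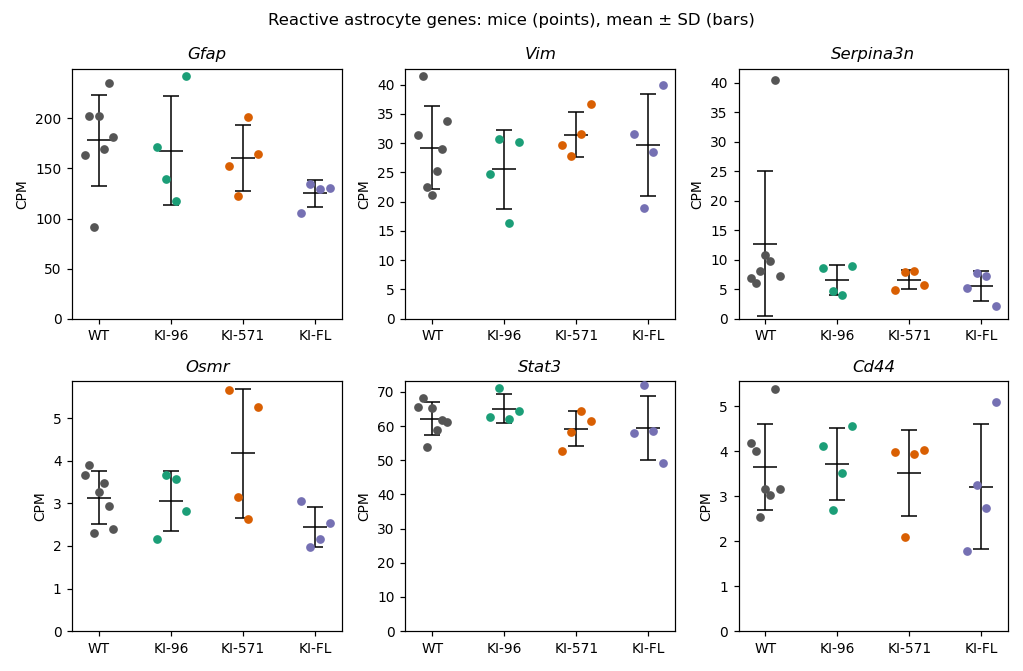
CPM of Gfap, Vim, Serpina3n, Osmr, Stat3 and Cd44 in each mouse by genotype, with mean and SD. KI-FL mice are below the WT median for Gfap, WT replicate 6 is the single high point of Serpina3n at 40.4 CPM, and KI-571 replicates 1 and 4 are the high points of Osmr.

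STAT3 acts in the reactive response described above. Promoter windows of 300 bases (250 before and 50 after the start, RefSeq, GRCm38.p6) were therefore read for the palindrome TTCNNNGAA on both strands. Windows were found for 27 of 33 genes, and none for Crym, Aqp4, Sox9, Sparcl1, Atp1b2 and Clu. The palindrome stood in 8.3% of all 32851 windows. Counted by gene, not by window, 1 of 10 reactive genes and 5 of 17 homeostatic genes held it. The stretches are shown because they are the windows of the list that hold it, with the palindrome in capitals and 10 bases on each side, 5′ to 3′ on the strand of the gene.
Gfap, chr11:102897184-102897212 (-): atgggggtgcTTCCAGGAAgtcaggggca
Acsbg1, chr9:54661893-54661921 (-): gaaggctggcTTCATTGAAattctcctca
Agt, chr8:124569860-124569888 (-): ccagtagggcTTCCTGGAAggggcccaga
Aldoc, chr11:78324064-78324092 (+): aggggccagaTTCAGTGAAagaagagctg
Aldoc, chr11:78324105-78324133 (+): tggcagcagtTTCCAGGAAgacctgtggc
Ntsr2, chr12:16653398-16653426 (+): gttttggaggTTCCCAGAAaggaggtggt
Slc1a3, chr15:8710885-8710913 (-): ttcaggatccTTCCAAGAAatttcagtta

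Gfap was the sole reactive gene with the palindrome, and Aldoc held it at 2 places. In Gfap its first base was 2 bases before the start, so that it spanned the start. This RefSeq start lies inside the Gfap bounds given above, not at their end. An AP-1 motif, TGANTCA, stood in 7.81% of all windows and in those of Gja1, Cp and Osmr, and the palindrome of the NFI factors in 0.04% of all windows and in 0 of 27 genes. A match is a description of the letters, not a binding site.

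Glutamate handling lay near WT. Slc1a2, the transporter GLT-1, was at 2193, 2477 and 2902 CPM in WT mice (lowest, median and highest). It was at 2929, 2996, 3149 and 2131 CPM in KI-96, at 3126, 2875, 2619 and 2473 CPM in KI-571 and at 2581, 2277, 2146 and 2262 CPM in KI-FL replicates 1 to 4. KI-96 replicates 1 to 3 and KI-571 replicate 1 were above every WT mouse, and KI-FL mice overlapped the lower WT mice. Slc1a2 differed from WT on the log2 scale by 0.14, 0.13 and -0.13 (standard errors 0.12, adjusted p = 0.821, 0.925 and 0.591 in edgeR). Slc1a3, the transporter GLAST, and Glul, which turns glutamate into glutamine, lay between -0.15 and 0.20 in the 3 genotypes on the log2 scale, with adjusted p of 0.464 or more in edgeR.

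Of the 7 water, ion and junction genes, all were below WT in KI-FL mice, with log2 fold changes from -0.49 to -0.049. Aqp4, the water channel of astrocyte end-feet, was at 72.2, 104 and 113 CPM in WT mice (lowest, median and highest). It was at 109, 82.0, 95.5 and 109 CPM in KI-96, at 85.0, 64.0, 83.3 and 89.3 CPM in KI-571 and at 70.1, 67.1, 66.0 and 78.1 CPM in KI-FL replicates 1 to 4. KI-FL replicates 1 to 3 were below every WT mouse, and replicate 4 was above WT replicate 3 alone.

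Aqp4 had the smallest p of the list in KI-FL mice, at -0.49 on the log2 scale with an adjusted p of 0.08 in edgeR (standard error 0.12). Its exact permutation test gave p = 0.0121, two-sided (adjusted p = 0.123 over all genes), where 0.00303 is the smallest the 330 splits allow. It passed without WT replicate 3 (-0.56, adjusted p = 0.0367 in edgeR) and by DESeq2 (adjusted p = 0.0119), so the call depends on the setting. In KI-571 mice Aqp4 differed by -0.29 (standard error 0.12, adjusted p = 0.528 in edgeR) and in KI-96 mice by 0.0065 (standard error 0.12, adjusted p = 0.995 in edgeR).

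Gja1, the gap junction protein connexin 43, was at 139.5, 194 and 240.1 CPM in WT mice (lowest, median and highest). It was at 178, 174, 100.2 and 174 CPM in KI-96, at 139, 148, 201 and 167 CPM in KI-571 and at 154, 159, 155 and 141 CPM in KI-FL replicates 1 to 4. The KI-FL mice lay between WT replicate 3 and the other WT mice, of which the lowest was at 185 CPM. Gja1 differed from WT on the log2 scale by -0.33, -0.27 and -0.37 (standard errors 0.15, adjusted p = 0.653, 0.731 and 0.215 in edgeR). Without KI-96 replicate 3 that of KI-96 mice was -0.17.

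The other members of this group are Gjb6 (connexin 30), Mlc1 (a membrane protein of end-feet), Slc4a4 (a sodium bicarbonate transporter), Atp1b2 (a sodium pump subunit) and Cldn10 (a claudin). Their log2 fold changes lay between -0.22 and 0.045 in the 3 genotypes, with adjusted p of 0.345 or more in edgeR. In KI-96 replicate 3, Mlc1 and Cldn10 differed by -1.17 and -1.01 from the mean of the other 3 KI-96 mice on the log2 scale.

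All 4 receptor and identity genes were below WT in KI-FL mice. Fgfr3 (chromosome 5 of GRCm38 from 33721674 to 33737068), a fibroblast growth factor receptor of the astrocyte lineage, was at 97.2, 104 and 123 CPM in WT mice (lowest, median and highest). It was at 92.9, 88.0, 72.4 and 107 CPM in KI-96, at 83.3, 99.3, 81.4 and 91.9 CPM in KI-571 and at 92.5, 89.1, 85.2 and 95.1 CPM in KI-FL replicates 1 to 4. All KI-FL mice were below all WT mice, which held for 2.38% of all tested genes, and 3 of 4 mice of each other KI genotype were below all WT mice as well.

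The log2 fold changes of Fgfr3 were close in size in the 3 genotypes, at -0.24, -0.26 and -0.23 (standard errors 0.10, adjusted p = 0.639, 0.461 and 0.234 in edgeR). For the 3 KI genotypes together it was -0.24 (standard error 0.07, adjusted p = 0.158 in edgeR). The same WT mice enter each of these values.

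Ntsr2, the neurotensin receptor of astrocytes, was at 127, 153 and 186 CPM in WT mice (lowest, median and highest). It was at 116, 140.0, 44.4 and 139 CPM in KI-96, at 82.8, 127, 132 and 124 CPM in KI-571 and at 112, 116, 107 and 129 CPM in KI-FL replicates 1 to 4. No KI mouse was above the WT median. Ntsr2 differed from WT on the log2 scale by -0.47, -0.38 and -0.39 (standard errors 0.21, adjusted p = 0.653, 0.714 and 0.344 in edgeR). Without KI-96 replicate 3, in which Ntsr2 was the gene of the list farthest below the other KI-96 mice, they were -0.21, -0.39 and -0.40 (adjusted p = 0.832, 0.234 and 0.0903 in edgeR).

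Gpr37l1, an orphan receptor of astrocytes, was at 178, 191 and 207 CPM in WT mice (lowest, median and highest). It was at 243, 231, 202 and 214 CPM in KI-96, at 249, 209.5, 227 and 178 CPM in KI-571 and at 182, 166, 185 and 175 CPM in KI-FL replicates 1 to 4. KI-96 replicate 3 alone overlapped WT in its genotype, and KI-FL mice lay in the lower part of the WT range or below it. Gpr37l1 differed from WT on the log2 scale by 0.22, 0.18 and -0.10 (standard errors 0.09, adjusted p = 0.629, 0.658 and 0.561 in edgeR).

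Sox9, the transcription factor of the astrocyte nucleus, was at 28.0, 38.2 and 50.5 CPM in WT mice (lowest, median and highest). It was at 33.7, 41.3, 43.3 and 43.3 CPM in KI-96, at 31.8, 47.0, 51.6 and 41.0 CPM in KI-571 and at 35.6, 28.7, 35.8 and 29.5 CPM in KI-FL replicates 1 to 4. All 4 KI-FL mice were below the WT median and inside the WT range. Sox9 differed from WT on the log2 scale by 0.036, 0.12 and -0.28 (standard errors 0.15, adjusted p = 0.975, 0.957 and 0.35 in edgeR). Over all alternatives the value in KI-FL mice ran from -0.537 to -0.058.

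Among the metabolic enzymes, Aldh1l1, the folate enzyme used as a pan-astrocyte marker, was at 46.4, 54.5 and 57.5 CPM in WT mice (lowest, median and highest). It was at 63.3, 61.8, 63.2 and 56.6 CPM in KI-96, at 72.7, 55.5, 51.8 and 48.7 CPM in KI-571 and at 52.3, 60.9, 49.3 and 59.7 CPM in KI-FL replicates 1 to 4. KI-96 replicates 1 to 3 were above every WT mouse. In edgeR's fit Aldh1l1 had log2 fold changes of 0.22, 0.12 and 0.081 (standard errors 0.10, adjusted p = 0.663, 0.893 and 0.715 in edgeR). Its mean was above that of WT in each KI genotype.

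Aldoc, the aldolase of astrocytes, was at 648 to 755 CPM in WT and at 807, 765, 760 and 765 CPM in KI-571 replicates 1 to 4. All KI-571 mice were above all WT mice, which held for 0.88% of all tested genes, yet the log2 fold change of 0.14 (standard error 0.12) had an adjusted p of 0.895 in edgeR. Acsbg1, an acyl-CoA synthetase, differed by -0.19 in KI-FL mice (standard error 0.09, adjusted p = 0.294 in edgeR). Aldoc and Acsbg1 were also higher in every KI-571 mouse than in every KI-FL mouse, which held for 2.28% of all genes.

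Of the 4 secreted homeostatic genes, 3 were below WT in KI-571 mice and all 4 in KI-96 and KI-FL mice. Itih3 (chromosome 14 of GRCm38 from 30908572 to 30923760), a hyaluronan-binding inhibitor chain, was at 25.8, 45.8 and 70.5 CPM in WT mice (lowest, median and highest). It was at 39.2, 22.4, 37.0 and 41.1 CPM in KI-96, at 30.9, 17.5, 28.2 and 22.2 CPM in KI-571 and at 19.6, 29.3, 37.4 and 58.2 CPM in KI-FL replicates 1 to 4. WT mice themselves spread over a wide range, and the 4 KI-571 mice lay at its lower end or below it.

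The log2 fold change of Itih3 in KI-571 mice was -1.001 (standard error 0.29, adjusted p = 0.259 in edgeR), and the two-sided exact permutation test gave p = 0.0303 (adjusted p = 0.4 over all genes). In KI-96 and KI-FL mice it was -0.50 and -0.45 (standard errors 0.29, adjusted p = 0.719 and 0.432 in edgeR). With Xist in the model Itih3 in KI-96 mice was at -0.11, and over all alternatives it ran from -0.829 to -0.112 there. In KI-FL mice it ran from -0.26 without KI-FL replicate 1 to -0.78 without KI-FL replicate 4, and over all alternatives from -0.895 to -0.132.

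Agt, angiotensinogen, was at 7.73, 47.3 and 78.9 CPM in WT mice (lowest, median and highest). It was at 52.4, 23.2, 40.3 and 64.7 CPM in KI-96, at 28.0, 10.5, 31.1 and 21.8 CPM in KI-571 and at 17.7, 32.5, 38.7 and 37.5 CPM in KI-FL replicates 1 to 4. Every KI mouse was inside the WT range, whose lowest value was WT replicate 3. In edgeR's fit Agt had log2 fold changes of -0.0083, -0.99 and -0.52 (standard errors 0.41, 0.43 and 0.42, adjusted p = 0.998, 0.574 and 0.54 in edgeR). That of KI-FL mice ran from -0.34 without KI-FL replicate 1 to -0.72 without WT replicate 3, and over all alternatives from -0.809 to -0.031.

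Sparcl1, also called hevin, was at 1169, 1277 and 1549.9 CPM in WT mice (lowest, median and highest). It was at 1312, 1138, 822 and 1408 CPM in KI-96, at 1093, 1113, 1222 and 1139.6 CPM in KI-571 and at 1004, 1095, 1146 and 1148 CPM in KI-FL replicates 1 to 4. All KI-FL mice were below all WT mice. In edgeR's fit Sparcl1 had log2 fold changes of -0.16, -0.20 and -0.26 (standard errors 0.12, adjusted p = 0.79, 0.78 and 0.294 in edgeR). Clu differed by -0.24, 0.082 and -0.17 (adjusted p = 0.769, 0.978 and 0.624 in edgeR), and was lowest in KI-96 replicate 3 at 293 CPM.

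Crym (chromosome 7 of GRCm38 from 120186380 to 120202111), the thyroid hormone binder mu-crystallin of striatal astrocytes, went the other way. It was at 88.9, 131 and 169 CPM in WT mice (lowest, median and highest). It was at 202, 114, 88.6 and 92.2 CPM in KI-96, at 174, 131, 155 and 117 CPM in KI-571 and at 142, 209.6, 214 and 214 CPM in KI-FL replicates 1 to 4. KI-FL replicates 2 to 4 were above every WT mouse, and replicate 1 was inside the WT range.

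The log2 fold change of Crym in KI-FL mice was 0.59 (standard error 0.20, adjusted p = 0.148 in edgeR), and the two-sided exact permutation test gave p = 0.0182 (adjusted p = 0.143 over all genes). In KI-96 and KI-571 mice it was -0.056 and 0.16 (standard errors 0.20, adjusted p = 0.971 and 0.957 in edgeR). S100b, a calcium binder of astrocytes that oligodendrocytes also express, differed by -0.11, -0.051 and -0.37 (adjusted p = 0.931, 0.994 and 0.329 in edgeR).

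**Figure D4:**
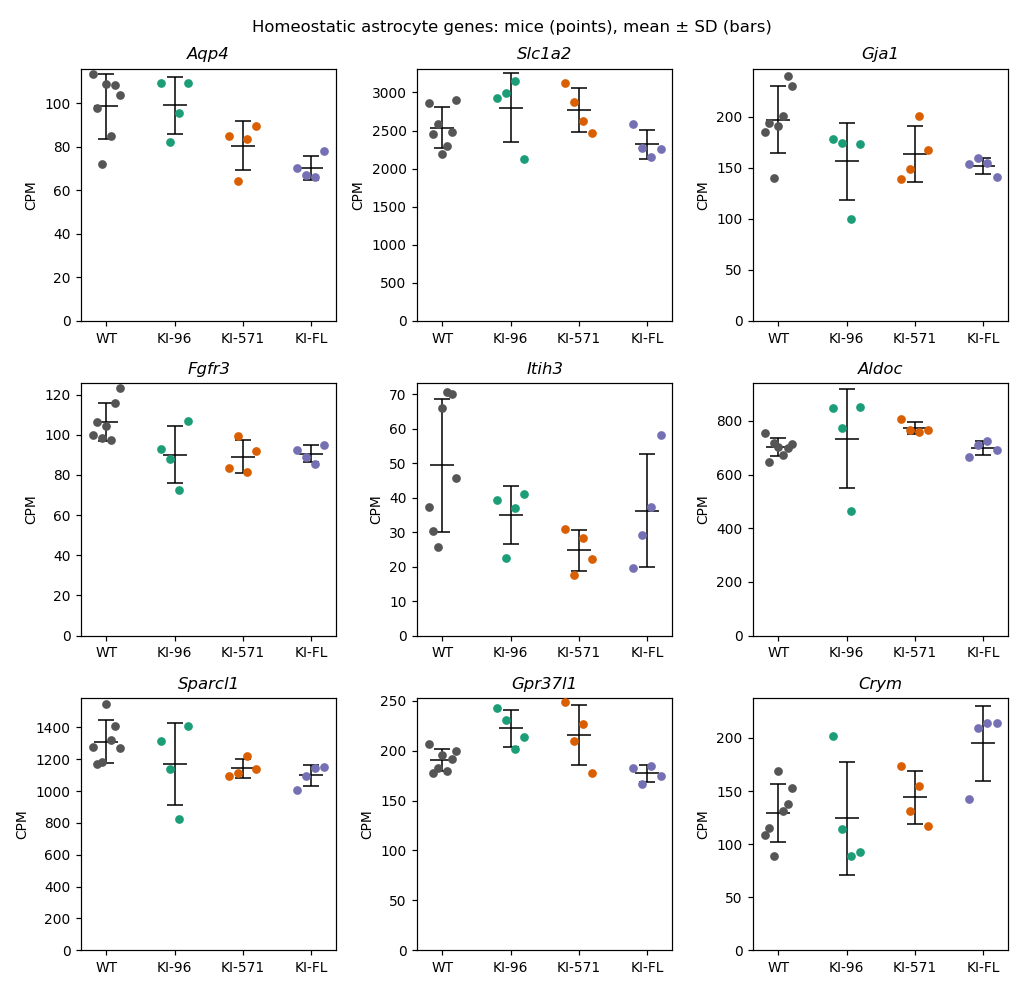
CPM of Aqp4, Slc1a2, Gja1, Fgfr3, Itih3, Aldoc, Sparcl1, Gpr37l1 and Crym in each mouse by genotype, with mean and SD. KI-FL mice are the lowest genotype for Aqp4 and Sparcl1 and the highest for Crym, and all 3 KI genotypes are near 90 CPM for Fgfr3 against a WT median of 104 CPM.

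Homeostatic and reactive genes were then set against each other in each mouse as mean log2 CPM. For the homeostatic genes it was 7.52 ± 0.155 in WT (SD, n = 7), and 7.42 ± 0.248, 7.41 ± 0.0643 and 7.36 ± 0.0637 in the KI-96, KI-571 and KI-FL genotypes (SD, n = 4 each). In the same order the reactive mean was 3.001 ± 0.247, 2.76 ± 0.103, 3.07 ± 0.318 and 2.60 ± 0.0868. The reactive minus the homeostatic mean was -4.52 ± 0.191, -4.66 ± 0.215, -4.34 ± 0.302 and -4.76 ± 0.0748. WT replicate 6 (-4.19) and KI-571 replicate 4 (-3.99) were the highest of their groups, and these are the mice with high Serpina3n and high Lcn2. Both genes enter the reactive mean, and Lcn2 had 3 counts over the 4 KI-96 mice together. The median log2 fold change of the 10 reactive genes, less open to single genes, was -0.012 in KI-96, 0.049 in KI-571 and -0.20 in KI-FL mice. The WT range, -4.82 to -4.19, overlapped each KI genotype, and no test was made of these means.

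**Figure D5:**
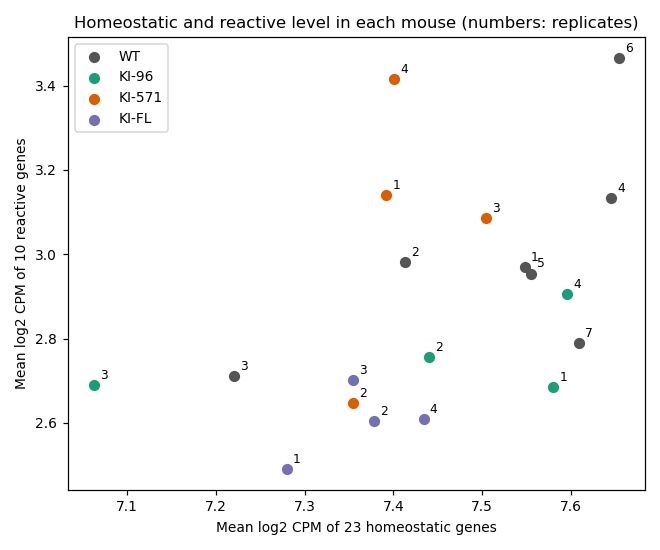
Mean log2 CPM of the 10 reactive genes against that of the 23 homeostatic genes, 1 numbered point per mouse, coloured by genotype. KI-FL mice lie at 2.49 to 2.70 on the reactive axis, just below the lowest WT mouse, replicate 3, at 2.71. The reactive mean includes Lcn2, which was close to the detection limit. KI-96 replicate 3 is the lowest on the homeostatic axis at 7.06.

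Groups that do not overlap, with every mouse of one genotype above every mouse of the other, were few. Against WT there were 0 genes in KI-96 mice (0.599% of all genes higher and 0.643% lower). In KI-571 mice 1 was higher, Aldoc, and 0 lower (0.88% and 0.67% of all genes), and in KI-FL mice 0 were higher and 2 lower, Fgfr3 and Sparcl1 (2.9% and 2.38%). Between KI genotypes, 2 were higher in KI-96 than in KI-FL mice and 0 lower (1.91% and 1.25%), 2 were higher in KI-571 than in KI-FL mice and 0 lower (2.28% and 2.04%), and 0 separated KI-96 from KI-571 mice (1.54% and 1.31%).

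Between KI genotypes no gene of the list passed either. For KI-96 against KI-FL mice 0 of 33 passed in edgeR, as for 0.0% of all genes. For KI-571 against KI-FL mice 0 of 33 passed (0.0864% of all genes), and for KI-96 against KI-571 mice 0 of 33 (0.0054% of all genes). DESeq2 also passed 0 in each, where it passed 0.205%, 0.476% and 0.189% of all genes in the same order. At an unadjusted p under 0.05 in edgeR, Aqp4 and Gpr37l1 were higher and Crym lower in KI-96 than in KI-FL mice (5.13% and 3.77% of all genes). Aqp4 differed by 0.49 (standard error 0.14, adjusted p = 0.366 in edgeR), Gpr37l1 by 0.33 (standard error 0.10, adjusted p = 0.406 in edgeR) and Crym by -0.65 (standard error 0.22, adjusted p = 0.442 in edgeR). Every KI-96 mouse was above every KI-FL mouse for Aqp4 and Gpr37l1, which held for 1.91% of all genes.

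In KI-571 against KI-FL mice, 4 genes were higher at an unadjusted p under 0.05 in edgeR and 0 lower (4.67% and 4.23% of all genes). They were Gpr37l1 (0.28, adjusted p = 0.417), Osmr (0.78, adjusted p = 0.453), Sox9 (0.40, adjusted p = 0.497) and Lcn2, for which the value rests on KI-571 replicate 4. In KI-96 against KI-571 mice, Aqp4 (0.30, adjusted p = 0.876 in edgeR) and Agt (0.98, adjusted p = 0.9 in edgeR) were higher at an unadjusted p under 0.05 and Lcn2 lower (3.14% and 2.38% of all genes). There too, Lcn2 had 3 counts over all KI-96 mice. The exact permutation test over the 70 splits of 4 against 4 mice cannot give a p under 0.0286.

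Other astrocyte genes were read from lists beside the 33. Of 29 tested astrocyte-enriched genes, 25 were below and 4 above WT in KI-FL mice (median log2 fold change -0.19), 18 and 11 in KI-96 mice, and 12 and 17 in KI-571 mice. In KI-FL mice 0 were higher and 7 lower at an unadjusted p under 0.05 in edgeR, and 20 to 25 lay below WT without either WT replicate 3, KI-FL replicate 1 or KI-FL replicate 4. In KI-FL mice 1 of the 29 passed in edgeR, where 0.194% of all genes did. Pla2g7, a lipoprotein-associated phospholipase, was at 57.5, 71.8 and 86.6 CPM in WT mice (lowest, median and highest) and at 47.0, 44.8, 49.0 and 46.1 CPM in KI-FL replicates 1 to 4. All KI-FL mice were below all WT mice for Pla2g7, as for 3 of the 29 genes and for 2.38% of all tested genes. Pla2g7 fell by 0.60 on the log2 scale (standard error 0.12, adjusted p = 0.0443 in edgeR). Its two-sided exact permutation test gave p = 0.00303 (adjusted p = 0.0751 over all genes). Pla2g7 passed in 6 of 19 fits with 1 mouse left out, with adjusted p of 0.013 to 0.106 in edgeR and the highest without KI-FL replicate 4, and it passed in DESeq2 (adjusted p = 0.000647).

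Of 17 tested pan-reactive and A2 genes, 11 were below and 6 above WT in KI-FL mice, and 0 passed in any of the 3 genotypes in edgeR (at an unadjusted p under 0.05, KI-FL mice had 1 gene higher and 1 lower, KI-571 mice 2 and 0, and KI-96 mice 0 and 0), with Ptgs2 in KI-571 mice at 1.14 (standard error 0.34, adjusted p = 0.269 in edgeR) and Fabp7 in KI-96 mice at 0.38 (adjusted p = 0.679 in edgeR). Of 11 A1 genes, 7 were below and 4 above in KI-FL mice, and 9 were above in KI-96 and in KI-571 mice. The direction in KI-FL mice rested on replicate 4, without which 6 were above and 5 below. In the 3 genotypes 0 A1 genes passed in edgeR. At an unadjusted p under 0.05 in edgeR, KI-FL mice had 1 A1 gene higher and 1 lower, KI-571 mice 2 and 0, and KI-96 mice 0 and 0. Among the A1 genes Fkbp5, a glucocorticoid-induced co-chaperone, was at 0.59 in KI-FL mice (standard error 0.15, adjusted p = 0.08 in edgeR) and Fbln5 at -0.70 (standard error 0.27, adjusted p = 0.198 in edgeR). Of 13 tested JAK-STAT3 genes, 7 were below and 6 above in KI-FL mice and 0 passed in edgeR (at an unadjusted p under 0.05, KI-FL mice had 1 gene higher and 0 lower, KI-96 mice 2 and 0, and KI-571 mice 0 and 0), with Ptpn11 at 0.25 (adjusted p = 0.192 in edgeR) and Cntfr at 0.12 (adjusted p = 0.514 in edgeR). Over all genes the shares at that p were 7.89% (higher) and 8.84% (lower) for KI-FL, 3.89% and 3.83% for KI-571, and 4.36% and 3.09% for KI-96.

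Markers of other cells were read in the same mice, and their part in the astrocyte values was not tested. In KI-FL mice all 10 oligodendrocyte markers were below WT (median -0.28, 0 passed in edgeR and 4 were lower at an unadjusted p under 0.05), with summed levels of 10492 to 12160 CPM against 11099 to 15929 CPM in WT. Without WT replicate 3, 1 of them passed and 7 were lower at an unadjusted p under 0.05. For microglia 7 of 10 markers were above WT (summed 434 to 569 CPM against 391 to 535 CPM), for endothelium 7 of 10 (220 to 314 CPM against 192 to 336 CPM) and for striatal projection neurons 7 of 12 (7357 to 8727 CPM against 6107 to 9614 CPM). In each of these the ranges overlapped, 0 passed in edgeR, and at an unadjusted p under 0.05 there were 2 higher and 1 lower for microglia, 0 either way for endothelium and 1 higher and 0 lower for striatal projection neurons. Without KI-FL replicate 4, 5 microglia markers were above and 5 below WT. Without KI-FL replicate 1, 4 endothelial markers were above and 6 below WT.

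Choroid plexus and ependyma markers reached 5181 and 5436 CPM in KI-571 replicates 2 and 4 and 3092 CPM in KI-FL replicate 1, against 73.4 to 453 CPM in WT. Of these 10 markers 0 passed in edgeR, while 7 in KI-571 and 4 in KI-FL mice were higher at an unadjusted p under 0.05. In KI-571 mice 4 passed without KI-FL replicate 1, and in KI-FL mice 0 were higher at an unadjusted p under 0.05 without that mouse. Of 9 cortical neuron markers, 9 were below WT in KI-FL mice, and 0 passed in edgeR, with 0 at an unadjusted p under 0.05. That direction rested on WT replicate 3. Without it 5 were above and 4 below, and the median summed level was 99.9 CPM in the 7 WT and 94.7 CPM in the KI-FL mice. In KI-571 mice 8 were below WT and 1 above. Without WT replicate 3 all 9 were above there, 4 of them at an unadjusted p under 0.05 in edgeR. KI-571 replicate 2 had the highest summed level of its genotype, at 489 CPM.

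Of 9 tested blood and liver genes, Alb rose in every KI genotype and Alas2 and Hbb-bt in KI-571 mice in edgeR, so that 3 passed in KI-571 mice and 1 in each other KI genotype. Alb had 0 to 2 counts in WT mice and 2 to 467 in KI mice, and with 1 mouse left out it passed in 19 of 19 fits in KI-96, 11 of 19 in KI-571 and 10 of 19 in KI-FL mice. Alas2 passed in 11 and Hbb-bt in 9 of 19 such fits, and the highest adjusted p in edgeR, 0.387 and 0.482, came without KI-571 replicate 2.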

How the data were processed

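Striatal RNA of 19 mice was measured by RNA sequencing, and genotypes and replicate numbers were taken from the labels. Raw counts of reads on each gene were deposited by the authors, made by trimming with BBduk, alignment to GRCm38 with STAR and counting with HTSeq. Tool versions, annotation and strand setting are not given in the sources used here, so reads of overlapping or antisense genes could have been split. The 5 summary lines of HTSeq were not treated as genes, and 4 columns of values that belong to none of these mice were not used. The study left out a WT mouse that it took for an outlier. The labels do not say which, so all 7 WT mice were kept here.

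From the counts, genes were filtered with filterByExpr (minimum count 10, minimum total 15), scaled by TMM and fitted in edgeR 4.0.16 (R 4.3.3) over all 19 mice and 4 genotype coefficients. The quasi-likelihood F-test was adjusted by Benjamini-Hochberg over the 18521 tested genes, and the biological coefficient of variation was 0.240. Log2 CPM used a prior count of 2. A floor of 3 counts was 0.114 to 0.237 CPM in the 19 mice and covers counting error only. Exact permutation tests of log2 CPM were two-sided. Their planned adjustment over the members alone was replaced by one over all tested genes. The methods name a sacrifice batch as a covariate, which the labels do not give. Exon lengths and positions came from GENCODE mouse release M21, and promoter windows from RefSeq.

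The members and the other gene lists were chosen with earlier results of these data known, and lists are described by counts and medians without a test. The lists were other astrocyte-enriched, other pan-reactive and A2, A1 and JAK-STAT3 genes, and markers of oligodendrocytes, microglia, endothelium, choroid plexus and ependyma, cortical neurons, striatal projection neurons, and blood and liver. Values in every mouse were given for Gfap, Vim, Aqp4, Slc1a2, Stat3, Serpina3n and the 12 further members with the smallest unadjusted p under 0.05; Aldoc was added after its values were seen. Of the other lists, genes that passed (at most 4 a list) or otherwise the 2 with the smallest p could be named. Alternatives were DESeq2 1.42.0, its size factors, other filters, a looser threshold of 0.1, only the groups compared, Xist as a covariate, WT replicates 1 to 4 or 5 to 7 alone, each mouse left out, and a replicate block. Leaving mice out for the other lists was added after the data were seen. Simulated counts were used as a test of the steps for KI-FL against WT over 18521 genes, where 60% of genes changed 2-fold and 79% of genes changed 4-fold were called, and 5.44% of calls were genes left unchanged. In a second simulated comparison with no changed gene, 0 genes were called.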

Additional observations from a re-analysis of the deposited data

Results flagged for a closer look

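In 16 of the 132 groups of 4 to 7 mice that were examined for the 33 genes, the highest or lowest mouse stood apart from the others by Dixon's 95% criterion, where chance gives about 7. All values are log2 CPM. KI-96 replicate 3 was below the other mice of its genotype for Gja1 at 6.649 (others 7.441 to 7.475), Aldoc at 8.854, Ntsr2 at 5.476 (others 6.856 to 7.131), Mlc1 at 6.385 and Clu at 8.198. This is the mouse with 24.2% of its reads on no gene, and the part of that share in these values was not tested. WT replicate 3, the WT mouse with high cortical neuron markers, was below the other WT mice for Gfap at 6.516 (others 7.354 to 7.88), Cldn10 at 4.444 and Cp at 2.683, and the part of those cells was not tested.

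WT replicate 6 was above the other WT mice for Serpina3n at 5.34 (others 2.619 to 3.453), and WT replicate 7 was below them for Glul at 9.904. KI-571 replicate 1 was above its genotype for Aldoc at 9.657 and below it for Ntsr2 at 6.374, and KI-571 replicate 2 was below it for Cd44 at 1.13. KI-FL replicate 1 was below its genotype for Crym at 7.153 and Gfap at 6.724. Lcn2 in KI-96 replicate 2, at -1.729, stood apart because the other KI-96 mice had 0 counts.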

How the results depend on the processing

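Over 30 alternatives, no member passed in KI-96 or KI-571 mice. In KI-FL mice 1 member, Aqp4, passed under DESeq2, without the filter on low counts, with only the groups compared and at an adjusted p under 0.1, and with single mice left out 0 to 1 did, the 1 without WT replicate 3. With all KI mice together 1 member passed, Itih3, when both WT replicate 3 and KI-FL replicate 4 were left out (adjusted p = 0.049 in edgeR). Same-numbered mice are different animals, and 5 of 24 such pairs had a correlation of deviations above 0.1 (range -0.128 to 0.29). Pairs with different numbers were not read beside them, so shared handling by replicate number was not tested. With the replicate number as a block, 0 members passed, and in KI-96 mice Gfap was at 0.015, Crym at 0.021 and Agt at 0.334. Replicate numbers 5 to 7 exist in WT mice alone, so with the block those WT mice add nothing to a comparison. At an unadjusted p under 0.05 the block left 1 member higher and 1 lower in KI-FL mice, against 1 and 7 without it. The share of all genes at this p was not read with the block or within parts of the WT mice. Within WT replicates 1 to 4 alone these counts were 1 and 1 and within 5 to 7 alone 1 and 9.

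Of 54 values (18 named genes in 3 KI genotypes), 10 turned sign with a mouse left out, 25 kept their sign but moved by over 1.5 times and 19 stayed within 1.5 times. Besides Lcn2 in KI-571 mice, which rests on replicate 4 (1.80 with it), the signs that turned under any alternative belonged to log2 fold changes between -0.20 and 0.12. With Xist as a covariate, KI-96 values were 0.028 for Gfap, 0.061 for Vim, -0.054 for Aqp4, -0.092 for Stat3, 0.08 for Crym and 0.013 for Agt. With WT replicates 1 to 4 alone they were 0.024 for Gfap, 0.046 for Crym and 0.235 for Agt, and with 5 to 7 alone -0.003 for Aqp4, 0.056 for Osmr and -0.218 for Sox9, with Sox9 in KI-571 mice at -0.135. Without the filter, Vim in KI-FL mice was at -0.011 and Aqp4 in KI-96 mice at -0.008. Without both WT replicate 3 and KI-FL replicate 4, Vim in KI-FL mice was at -0.21, and in KI-96 mice Aqp4 was at -0.056 and Sox9 at -0.0. With single mice left out, KI-96 values ranged from -0.32 to 0.05 for Gfap, -0.058 to 0.085 for Aqp4, -0.393 to 0.073 for Crym, -0.134 to 0.092 for Osmr, -0.032 to 0.112 for Sox9 and -0.237 to 0.207 for Agt. KI-FL values ranged from -0.15 to 0.187 for Vim and -0.17 to 0.015 for Stat3, and KI-571 values from -0.358 to 2.184 for Lcn2 and -0.016 to 0.193 for Aldh1l1. The causes were not tested. Depth limits Lcn2, Timp1, Osmr, Cd44 and S1pr3, which had under 160 counts in every mouse.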
